A study of Mus musculus with 6 samples.

Results

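The desmosomal genes of mouse skin are described here: the desmosomal cadherins Dsg1a, Dsg1b, Dsg2, Dsg3, Dsg4, Dsc1, Dsc2 and Dsc3 and the plaque proteins Pkp1 and Dsp. They were chosen by name, as the array files name their probes, and all 10 genes were found, on 22 probes, among 17779 genes that were bright enough to test. The 10 genes were each tested through at least 1 probe, and 21 of the 22 probes were bright enough. The RNA came from whole back skin, shaved and coated every day for 7 days, of C57BL/6J females (an inbred mouse strain) 6 to 8 weeks of age. Treated mice were given 62.5 mg of cream a day with 5% imiquimod, which activates the receptor Tlr7 and brings on skin inflammation that resembles psoriasis. Control mice were given as much vehicle cream. There were 3 samples in each group, and each was read on its own Agilent array with a single dye. Whether the 3 samples of a group were 3 animals is not given in the labels, and the p-values therefore describe the spread of these samples alone, part of which may be technical.

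Desmosomes are junctions that hold neighbouring keratinocytes together and anchor their keratin filaments. Desmogleins (Dsg) and desmocollins (Dsc) are cadherins that bind across the gap between cells, while plakoglobin (Jup) and the plakophilins (Pkp) link their tails inside the cell to desmoplakin (Dsp), which holds the keratins. In epidermis the cadherins are layered: Dsg3 and Dsc3 are known mainly from the lower layers, desmoglein 1 and Dsc1 from the upper layers, Dsg2 and Dsc2 from many simple and stratified epithelia, and Dsg4 in mouse mainly from the hair follicle. The mouse has several desmoglein 1 genes, close copies of each other, where human has a single one.

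The records gave the treatment of the arrays in 2 opposite ways, and this bears on every direction below. In 6 of 6 scanner files, the treatment word in the file's name was the opposite of the treatment of the sample it was filed under. The deposited value table, read by sample title, sided with the file names: in 6 of 6 columns it matched the file of the same-numbered sample named for its treatment, where Spearman correlations over 24253 probes were 0.9999997 or more, and correlations with the sample's filed array were 0.943 to 0.953. Arrays are grouped here by the file names and the value table, so that a positive difference means a higher signal in the arrays named for imiquimod. Grouped as filed, every sign below turns round. With the grouping used here, 9 of 9 measured genes of a list known to rise in imiquimod-treated skin were higher in the imiquimod arrays (median log2 difference 5.41), among them the wound keratins Krt6b, by 5.41 (SE 0.33, limma adjusted p = 0.00143), and Krt6a, by 4.67 (SE 0.33, limma adjusted p = 0.00167). These lists were drawn up with earlier results of these data known, so they are a description of the grouping. Slide 1 held imiquimod array 1 and vehicle arrays 1 to 3, and slide 2 held imiquimod arrays 2 and 3. Each array read 61.2% to 67.4% of its probes well above background, and pairs of arrays correlated at 0.992 within the imiquimod group, at 0.960 to 0.983 within the vehicle group and at 0.942 to 0.954 between groups. Values are the log2 of the scanner's processed signal minus the array's 75th percentile, so 0 marks that percentile. Levels of different probes are not comparable with each other.

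The desmosomal genes did not move as a unit. Of the 10, Dsg1b, Dsg3, Dsc1 and Pkp1 rose in the imiquimod arrays, Dsg2 and Dsg4 fell, and Dsg1a, Dsc2, Dsc3 and Dsp did not pass at an adjusted p of 0.05 in limma. Across all genes 23.6% passed, 13.1% higher and 10.5% lower in the imiquimod arrays. In 5 of the 10 every imiquimod array lay above every vehicle array, and in 2 every imiquimod array lay below, which held for 25.9% and 20.7% of all genes, so that 7 did not overlap, against 46.6% of all genes. The median log2 difference of the 10 genes was 0.58, against 0.023 over all genes. The rises were between 1.84-fold and 2.46-fold, while the fall of Dsg4 was far larger. In bulk skin, fewer cells of a type and less RNA per cell cannot be told apart. With slide as a block, which compares imiquimod array 1 with the 3 vehicle arrays, 1 of the 10 genes passed, Dsg3, against 5.96% of all genes, while 9 of 10 kept their sign, Dsg1a being the exception. Dsg4 passed the filter on dim probes only through the vehicle arrays, where it is high, so its call and its place in these counts are a description. Calls also depended on single arrays: 1 of the 10 genes passed without imiquimod array 1 (Dsg1b) and 2 each without imiquimod array 2, imiquimod array 3 or vehicle array 1, against 6 without vehicle array 2 and 5 without vehicle array 3. The same held over all 17779 genes, where 2331 were higher and 1866 lower with all arrays. Without imiquimod array 1, 2 or 3 or vehicle array 1, 944 to 1032 were higher and 745 to 854 lower. Without vehicle array 2 or 3, 2460 and 2515 were higher and 2215 and 1972 lower.

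**Figure D1:**
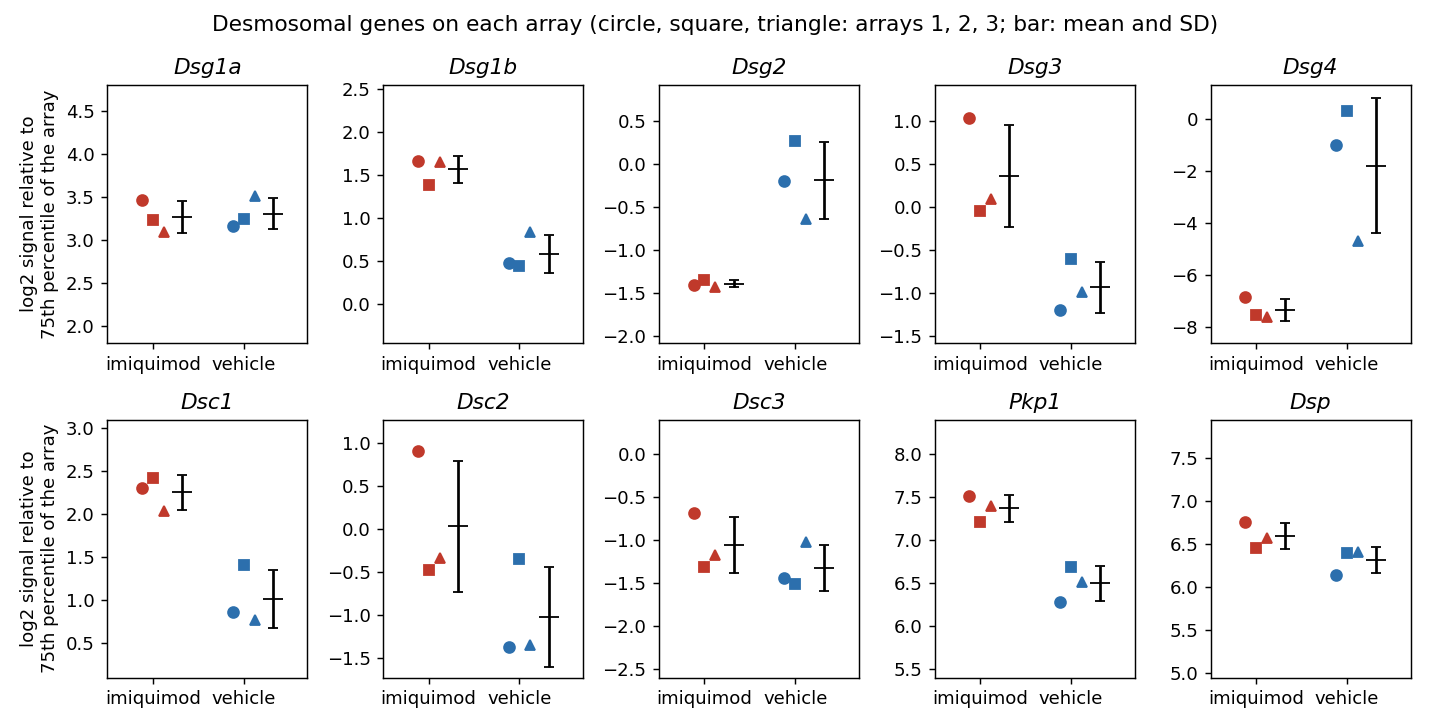
Log2 signal relative to the array's 75th percentile for the 10 desmosomal genes, with the 3 imiquimod arrays at the left and the 3 vehicle arrays at the right of each panel; circles, squares and triangles are arrays 1, 2 and 3, and the bar gives the mean and SD. The groups do not overlap for Dsg1b, Dsg2, Dsg3, Dsg4, Dsc1, Pkp1 and Dsp, and in Dsg4 vehicle array 3 lies at -4.69, far below the other vehicle arrays.

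Desmoglein 1, the cadherin of the upper epidermis and a target of autoantibodies in pemphigus foliaceus, is read here through the copies Dsg1a and Dsg1b. Dsg1a had log2 signals of 3.47, 3.24 and 3.1 in the imiquimod arrays, against 3.16, 3.25 and 3.51 in the vehicle arrays. These values are interleaved, and the difference was -0.04 (95% confidence interval -0.41 to 0.34, limma adjusted p = 0.880). Dsg1b had 1.66, 1.39 and 1.65 in the imiquimod arrays, against 0.48, 0.44 and 0.84 in the vehicle arrays. Each imiquimod array lay above each vehicle array, and Dsg1b was 1.97-fold higher, with a log2 difference of 0.98 (SE 0.15, limma adjusted p = 0.0103). The value with slide as a block was 1.07 (limma adjusted p = 0.0711).

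The Dsg1b probe used above, and a second one, also list an accession of Dsg1c, a further copy, so both could read Dsg1c RNA too. The remaining Dsg1b probe, in mm9 on chromosome 18 from 20567377 to 20567436, lists no Dsg1c accession. The probe named for Dsg1c does not list that accession either, so its absence does not show that Dsg1c RNA goes unread. The remaining Dsg1b probe read -0.66, -0.68 and -0.48 in the imiquimod arrays, against -2.45, -2.15 and -2.10 in the vehicle arrays. That is a 3.09-fold rise, a log2 difference of 1.63 (SE 0.14, limma adjusted p = 0.00230 over all 27415 tested probes, of which 21.2% passed), while the probes that list Dsg1c rose by 0.98 and 0.81. The probe of Dsg1c itself fell: it read -1.64, -1.73 and -1.56 in the imiquimod arrays, against -0.89, -1.0 and -0.28 in the vehicle arrays, a log2 difference of -0.92 (SE 0.21, limma adjusted p = 0.0272). That call did not hold with slide as a block (-0.92, limma adjusted p = 0.164). The log2 ratio of Dsg1b, read by the probe used above, to Dsg1c within an array averaged 3.21 ± 0.09 in the imiquimod arrays and 1.30 ± 0.17 in the vehicle arrays (SD, n = 3 each), a shift of 1.91. An exact two-sided permutation test gave p = 0.1, the smallest that 3 against 3 arrays allow, for this and for each of 3 other pairs of relatives described below, which were chosen after their values were seen (adjusted p = 0.1 over the 4 pairs).

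Dsg3, the desmoglein of the lower epidermal layers and the main autoantigen of pemphigus vulgaris, had log2 signals of 1.04, -0.05 and 0.09 in the imiquimod arrays, against -1.20, -0.61 and -0.99 in the vehicle arrays. Imiquimod array 1 stood highest, and the groups did not overlap. Dsg3 was 2.46-fold higher, with a log2 difference of 1.30 (SE 0.33, limma adjusted p = 0.0374), and the value with slide as a block was 1.97 (limma adjusted p = 0.0287). The probe behind this lies in mm9 on chromosome 18 from 20698528 to 20698587. The other Dsg3 probe, taken from a RIKEN cDNA and placed from 20705763 to 20705822, did not follow: it read -2.79, -3.69 and -3.74 in the imiquimod arrays, against -3.70, -3.60 and -2.95 in the vehicle arrays, a difference of 0.01 (SE 0.33, limma adjusted p = 0.986). With the mean of both probes Dsg3 differed by 0.65 (limma adjusted p = 0.169), so the call rests on 1 probe. The call was also lost in 5 of 6 fits that left out an array (limma adjusted p = 0.0572 to 0.120) and kept without vehicle array 2 (1.46, limma adjusted p = 0.0400).

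Dsg2, a desmoglein found in most epithelia that carry desmosomes, fell. It had log2 signals of -1.40, -1.34 and -1.42 in the imiquimod arrays, against -0.19, 0.27 and -0.63 in the vehicle arrays. The imiquimod arrays were nearly equal, the vehicle arrays spread more widely, and none overlapped. Dsg2 was 2.29-fold lower, with a log2 difference of -1.20 (SE 0.23, limma adjusted p = 0.0183), and with slide as a block -1.21 (limma adjusted p = 0.126). The call was lost without imiquimod array 1, 2 or 3 or vehicle array 1 (limma adjusted p = 0.0627 to 0.0682). The 3 other tested probes of Dsg2 differed by -0.94, -0.96 and -1.29, and in all 3 the imiquimod arrays lay below the vehicle arrays, though the probe at -0.94 did not pass (limma adjusted p = 0.0574). A further Dsg2 probe was well above background on 0 of 6 arrays. The log2 ratio of Dsg3 to Dsg2 averaged 1.75 ± 0.61 in the imiquimod arrays and -0.75 ± 0.35 in the vehicle arrays (SD, n = 3 each), a shift of 2.50. With the other Dsg3 probe the ratio averaged -2.02 ± 0.54 in the imiquimod arrays and -3.23 ± 0.81 in the vehicle arrays (SD, n = 3 each), a shift of 1.21, a value computed after seeing the data.

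Dsg4, the hair follicle desmoglein whose loss gives the lanceolate hair mouse, showed the greatest difference among the 10 genes. It read -6.87, -7.55 and -7.63 in the imiquimod arrays, where it was well above background on 0 of 3, against -1.01, 0.33 and -4.69 in the vehicle arrays, where it was above background on 3 of 3. The 3 vehicle arrays were far apart, and array 3 was by far the lowest of them. Since the imiquimod side has only a bound, the group means put Dsg4 at least 11.1-fold lower in the imiquimod arrays, with each array's faintest signal among probes well above background as the floor. That bound was 5.33-fold without vehicle array 2 and 30.4-fold without vehicle array 3. With a filter that asks for all 6 arrays above background Dsg4 was not tested. The fitted log2 difference was -5.56 (SE 1.25, limma adjusted p = 0.0272), a call lost without imiquimod array 1, 2 or 3 or vehicle array 1 (limma adjusted p = 0.0796 to 0.0959). It was -7.01 without vehicle array 3, -4.50 without vehicle array 2 and -2.59 with normexp background correction, where the call was lost (limma adjusted p = 0.0626), and with slide as a block it was -5.08 (limma adjusted p = 0.183).

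**Figure D2:**
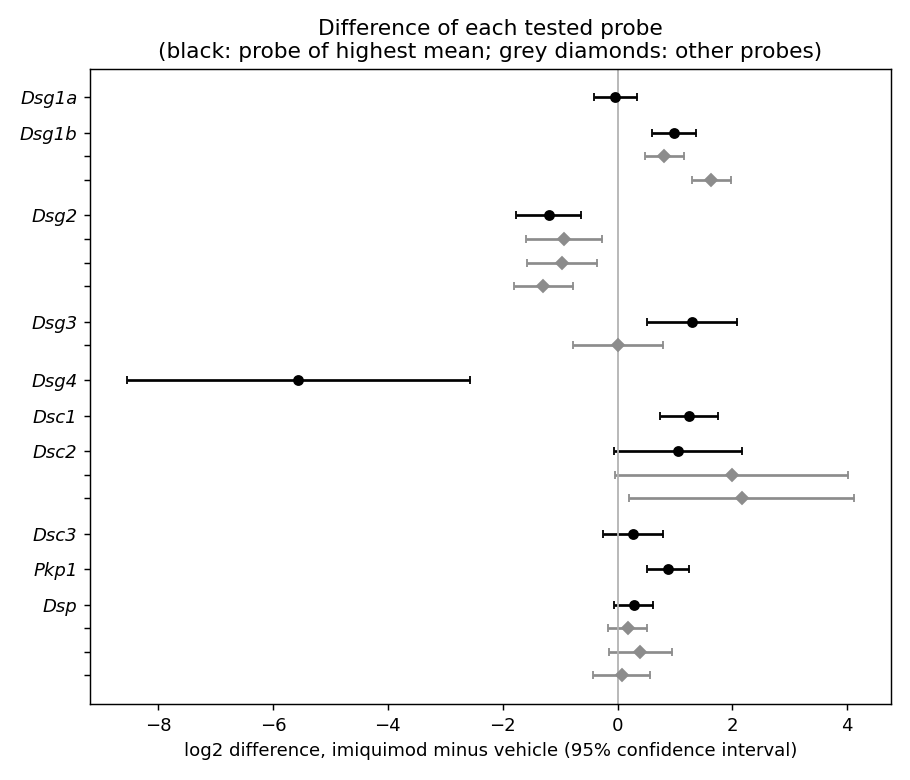
Log2 difference, imiquimod minus vehicle, of each of the 21 tested probes of the 10 desmosomal genes, with 95% confidence intervals from the fit over all probes; black circles mark the probe of highest mean and grey diamonds the other probes of the gene. The 4 probes of Dsg2 lie between -1.29 and -0.94, the 3 of Dsg1b between 0.81 and 1.63, and the 2 of Dsg3 lie apart at 1.30 and 0.01.

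Among the desmocollins, Dsc1, the desmocollin of the upper epidermis, rose. It had log2 signals of 2.30, 2.42 and 2.03 in the imiquimod arrays, against 0.86, 1.40 and 0.77 in the vehicle arrays. The groups were clearly apart, and Dsc1 was 2.36-fold higher, with a log2 difference of 1.24 (SE 0.21, limma adjusted p = 0.0120) and 1.29 with slide as a block (limma adjusted p = 0.0909). A probe that the array files call 1110020A10Rik, a name that RefSeq's table lists as a synonym of Dsc1, lies nearby in mm9 on chromosome 18, from 20242427 to 20242486, against 20243949 to 20244008 for Dsc1. It was 2.03-fold higher (log2 difference 1.02, SE 0.20, limma adjusted p = 0.0199 over all probes).

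Dsc2, the widely expressed desmocollin, had 0.91, -0.48 and -0.34 in the imiquimod arrays, against -1.37, -0.35 and -1.35 in the vehicle arrays. Imiquimod array 1 was high, and vehicle array 2 fell among the imiquimod arrays. The log2 difference of 1.05 (95% confidence interval -0.09 to 2.20, limma adjusted p = 0.151) missed the threshold. For imiquimod array 1 alone, which is what the slide block compares, it was 1.94 (limma adjusted p = 0.0819). The 2 other Dsc2 probes differed by 1.99 and 2.16, with the same arrays high and low, and did not pass (limma adjusted p = 0.139 and 0.107). Dsc3, the desmocollin of the lower layers, had -0.69, -1.31 and -1.17 in the imiquimod arrays, against -1.44, -1.51 and -1.02 in the vehicle arrays, with overlap. Its difference was 0.27 (95% confidence interval -0.27 to 0.80, limma adjusted p = 0.404). The log2 ratio of Dsc1 to Dsc3 averaged 3.31 ± 0.38 in the imiquimod arrays and 2.34 ± 0.56 in the vehicle arrays (SD, n = 3 each), a shift of 0.97.

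By the order of genes in RefSeq's table of GRCm38.p6, the desmosomal cadherins stand side by side on chromosome 18 as Dsc3, Dsc2, Dsc1, Dsg1c, Dsg1a, Dsg1b, Dsg4, Dsg3 and Dsg2, with 0 other protein-coding genes starting between them. Some neighbours in this row moved in opposite directions, and others did not. Dsc3 (0.27), Dsc2 (1.05) and Dsc1 were all positive, though only Dsc1 passed, and Dsg1a (-0.04) hardly differed. Dsc1 (1.24) stood beside Dsg1c (-0.92), and Dsg4 (-5.56) stood between Dsg1b (0.98) and Dsg3 (1.30), with Dsg2 (-1.20) at the end. In all, 3 of the 9 rose, 3 fell and 3 did not pass, where 13.1% of all genes were higher and 10.5% lower. The other Dsg3 probe differed by 0.01, and Dsg4 passed the filter on dim probes only through the vehicle arrays, so this count is a description.

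**Figure D3:**
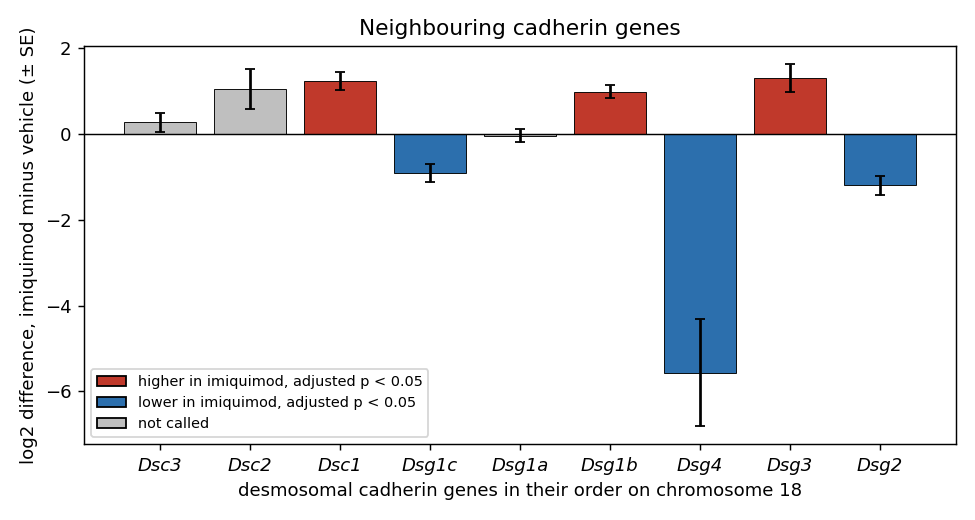
Log2 difference, imiquimod minus vehicle, with its SE, for the 9 desmosomal cadherin genes in their order along chromosome 18; red bars passed as higher, blue bars as lower, and grey bars did not pass. From Dsg1b to Dsg2 the direction changes at each step, and the bar of Dsg4 is the fitted value, measured against background in the imiquimod arrays.

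The plaque proteins were read by bright probes. Pkp1, a plakophilin that gathers desmoplakin and cadherins into the plaque of suprabasal cells, had log2 signals of 7.51, 7.20 and 7.39 in the imiquimod arrays, against 6.28, 6.68 and 6.51 in the vehicle arrays. All imiquimod arrays lay above all vehicle arrays, and Pkp1 was 1.84-fold higher, with a log2 difference of 0.88 (SE 0.15, limma adjusted p = 0.0131). With quantile normalization the difference was 0.55 (limma adjusted p = 0.0291), and with slide as a block 1.02 (limma adjusted p = 0.0670). Its probe lies in mm9 on chromosome 1 from 137768027 to 137768086.

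Dsp, the plakin that ties the junction to keratin filaments, had 6.76, 6.46 and 6.57 in the imiquimod arrays, against 6.14, 6.40 and 6.41 in the vehicle arrays. The groups did not overlap but nearly touched, and the difference of 0.28 (95% confidence interval -0.06 to 0.61, limma adjusted p = 0.187) did not pass. With quantile normalization it was 0.02. The array reads Dsp at 4 places on chromosome 13, and the other 3 probes, set apart along the gene, are shown because they gave separate readings of the same gene. Whether these probes read the same transcript was not checked. In mm9 they lie, in the order below, from 38285480 to 38286579, a span that is longer than the probe, from 38287658 to 38287717 and from 38289734 to 38289793.
Dsp probe 1: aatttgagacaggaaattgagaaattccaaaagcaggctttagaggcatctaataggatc
Dsp probe 2: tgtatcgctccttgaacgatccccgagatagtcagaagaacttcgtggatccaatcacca
Dsp probe 3: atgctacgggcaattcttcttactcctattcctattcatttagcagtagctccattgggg
Probe 1 differed by 0.07 (limma adjusted p = 0.824), probe 2 by 0.40 (limma adjusted p = 0.243) and probe 3 by 0.18 (limma adjusted p = 0.384). The imiquimod and vehicle arrays overlapped in each of these 3 probes.

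Other genes of the desmosome and its plakins were read as a list of 10, all of them tested: 1 rose, 2 fell and 7 did not pass, with a median log2 difference of 0.06. Jup, or plakoglobin, the armadillo protein that binds the cadherin tails, rose. It had 1.86, 1.58 and 1.60 in the imiquimod arrays, against 0.46, 1.03 and 0.72 in the vehicle arrays, a log2 difference of 0.94 (SE 0.18, limma adjusted p = 0.0173; with slide as a block 1.12, limma adjusted p = 0.0760). The Jup call was lost without imiquimod array 1, 2 or 3 or vehicle array 1 (limma adjusted p = 0.0551 to 0.0655). It was also lost with the replicate number as a block (limma adjusted p = 0.0623). Pkp2, the plakophilin best known from the heart, fell, as did Dsg1c. Pkp2 had -2.0, -2.32 and -2.41 in the imiquimod arrays, against 0.50, 0.81 and -0.24 in the vehicle arrays, a 6.07-fold lower signal with a log2 difference of -2.60 (SE 0.29, limma adjusted p = 0.00401). With slide as a block, which compares imiquimod array 1 alone with the 3 vehicle arrays, Pkp2 differed by -2.36. The log2 ratio of Pkp1 to Pkp2 averaged 9.61 ± 0.17 in the imiquimod arrays and 6.13 ± 0.54 in the vehicle arrays (SD, n = 3 each), a shift of 3.48 and the largest of the 4 pairs of relatives. Perp, a membrane protein of epidermal desmosomes, differed by 0.37 (SE 0.12, limma adjusted p = 0.0690), Pkp3 by 0.39 (SE 0.23, limma adjusted p = 0.260), and the plakins Evpl and Ppl by 0.17 and 0.09 without passing.

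The adherens junction is the other cadherin junction of keratinocytes. Of its 10 listed genes 0 rose, 1 fell and 9 did not pass (median -0.10). Afdn, or afadin, which links nectins to actin, differed by -1.77 (SE 0.16, limma adjusted p = 0.00233), while Cdh1, or E-cadherin, differed by -0.01 (95% confidence interval -0.32 to 0.31, limma adjusted p = 0.966). Of 10 measured transcription factors of keratinocytes, 1 rose, 0 fell and 9 did not pass (median -0.29). Tfap2a rose by 0.89 (SE 0.20, limma adjusted p = 0.0262), a call that the slide block lost (0.97, limma adjusted p = 0.135). Hoxc13, a regulator of hair keratins, differed by -2.53 (SE 0.73, limma adjusted p = 0.0529), with -4.73, -4.15 and -4.36 in the imiquimod arrays, against -1.54, -0.58 and -3.51 in the vehicle arrays. As with Dsg4, vehicle array 3 was the lowest of its group.

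Markers of the cells in whole skin moved with these genes, and their part in the results was not tested. Keratinocyte markers were present on all arrays. Of 6 basal markers 3 rose, Krt5, Krt14 and Itga6, and Krt15 fell. Krt14 differed by 2.25 (SE 0.15, limma adjusted p = 0.00155) and Krt15 by -2.12 (SE 0.32, limma adjusted p = 0.00937). Of 6 suprabasal markers 2 rose, Krt1 and Calm4, and 0 fell, with Krt1 at 1.71 (SE 0.26, limma adjusted p = 0.00958). The summed signal of the basal list, as a multiple of the array's 75th percentile, was 886 to 1050 in the imiquimod arrays, against 475 to 616 in the vehicle arrays, and that of the suprabasal list 1790 to 1870 against 1180 to 1580.

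Hair follicle markers moved with Dsg4, Dsg2 and Pkp2. All 5 measured inner root sheath markers fell, the keratins Krt25, Krt27, Krt28 and Krt71 and the sheath protein Tchh, as did 6 of 7 hair shaft markers, Krt33a and Krt34 with the smallest p. The exception was Krt33b, at 2.39 (SE 1.29, limma adjusted p = 0.226). The summed hair shaft signal was 10.6, 7.68 and 5.35 in the imiquimod arrays, against 197, 665 and 11.9 in vehicle arrays 1, 2 and 3. Nearly all of the imiquimod sum was Krt33b, with log2 signals of 3.38, 2.88 and 2.35 there, against 0.51, 3.16 and -2.21 in the vehicle arrays. The 6 hair shaft markers that fell each read -2.57 or lower in the imiquimod arrays. That of the inner root sheath was 4.09, 3.57 and 5.37 in the imiquimod arrays, against 694, 1160 and 120 in the vehicle arrays. Both lists were thus highest in vehicle array 2 and lowest, among the vehicle arrays, in array 3, and Dsg4, Dsg2 and Pkp2 stood in the same order. This order was not particular to genes that fell. Dsc1, which rose, had it too, with 0.86, 1.40 and 0.77 in vehicle arrays 1, 2 and 3. So did the melanocyte list, with summed signals of 65.9, 110 and 12. Dsg1c, which fell, did not stand in this order: among the vehicle arrays it was highest in array 3 and lowest in array 2. The share of all genes with this order was not counted. The hair shaft markers Krt34, Krt85 and Krt86 and the sheath marker Krt25 were above background on 0 imiquimod arrays, and Krt33a on 1. Like Dsg4, those on 0 passed the filter on dim probes only through the vehicle arrays, where they are high. Their calls, their place in the marker counts and the order of p are therefore a description. Dsg2 differed by -1.42 without vehicle array 3 and by -0.97 without vehicle array 2, and Pkp2 by -2.90 and -2.37.

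**Figure D4:**
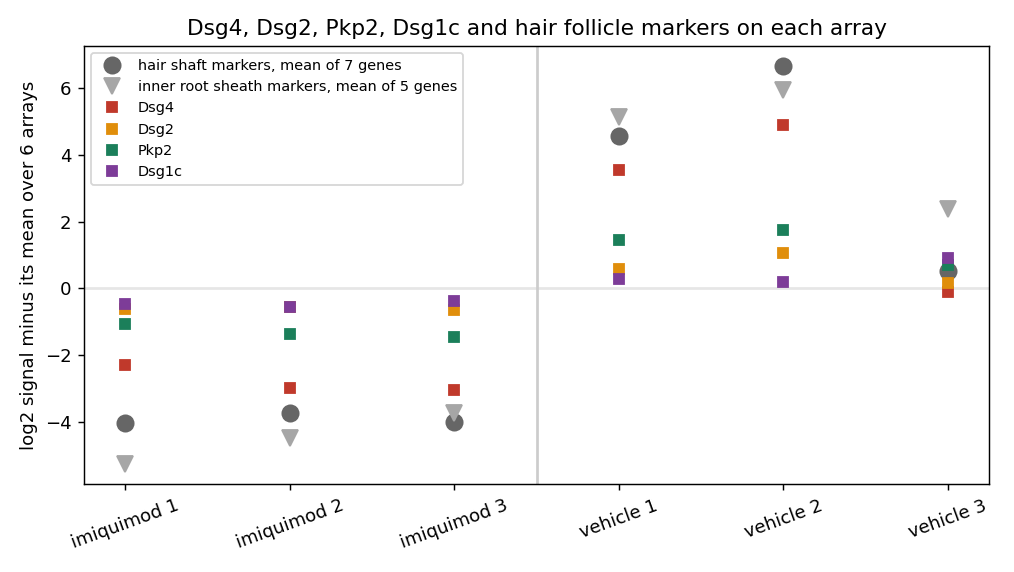
Log2 signal of Dsg4, Dsg2, Pkp2 and Dsg1c (squares) on each array, minus the gene's mean over the 6 arrays, beside the mean of 7 hair shaft markers (grey circles) and of 5 inner root sheath markers (grey triangles) on the same scale. In both lists and in Dsg4, Dsg2 and Pkp2 vehicle array 2 is the highest and array 3 the lowest of the vehicle arrays, while Dsg1c is highest in vehicle array 3. In all 6 the imiquimod arrays lie below the vehicle arrays.

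Of the other marker lists, 4 of 5 measured sebocyte markers fell (Scd3, Awat2, Elovl3 and Far2) and Mogat2 rose. Rises were seen in 4 of 6 fibroblast markers (Col1a1, Col1a2, Col3a1 and Lum), 3 of 5 leukocyte markers (Ptprc, Itgam and Lyz2) and 2 of 5 endothelial markers (Pecam1 and Cdh5). The leukocyte markers that did not pass went opposite ways. Cd68 differed by 1.05 (SE 0.35, limma adjusted p = 0.0777) and Cd3e by -0.76 (SE 0.28, limma adjusted p = 0.102). In muscle 1 of 6 fell, Myh1, and in adipocytes 1 of 6, Lep. Of 4 measured melanocyte markers 0 passed in limma (0 also at an unadjusted p of 0.05), with summed signals of 12.8 to 16.3 in the imiquimod arrays, against 12 to 110 in the vehicle arrays.

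For each desmosomal gene, the gene of closest profile was found among 14887 named genes, as the smallest Euclidean distance between log2 values centred on the gene's mean over the 6 arrays. Dsg4 was closest to Prr9 (distance 0.36), but its 3 imiquimod values lie in the background, so this distance compares background readings in part. Dsg2 was closest to Lmo4 (0.25), Dsg3 to Pram1 (0.37), Dsg1b to Slfn9 (0.15), Dsc1 to Sult2b1 (0.21) and Pkp1 to Naa25 (0.15). Dsg1a was closest to Amigo3 (0.11), Dsc2 to Prelid2 (0.46), Dsc3 to Cox10 (0.17) and Dsp to Raver2 (0.08). The names are a description of these 6 arrays only.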

How the data were processed

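The authors deposited scanner files that hold linear spot intensity (processed, mean and background signals), made with Agilent Feature Extraction 10.7.3.1 per the file headers; the submitters' processing notes name 9.1. A deposited table holds log2 values with column medians of 7.05, whose normalization is not given in the sources used here. Scanner files were joined to sample titles through their match to this table's columns.

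After control spots and 322 outlier spots were dropped, spots of a probe were averaged as log2 processed signal, less the array's 75th percentile. A probe was tested if well above background on at least 3 of 6 arrays (27415 probes), and a gene was read by its tested probe of highest mean. Members were found by the files' gene names. Other probes took names from RefSeq accessions (27644) or an unambiguous synonym (470), and Il36a is Il1f6 in the files. The test was limma 3.58.1 (R 4.3.3; lmFit, eBayes), two-sided and without covariates, with Benjamini-Hochberg adjustment over all genes, and was tested on simulated data. There it recovered 38% of log2 changes of 1, 72% of changes of 2, 88% of changes of 3 and 94% of changes of 4. A gene that did not pass may therefore still differ by about 1. The number of arrays limits the precision. Alternatives varied the normalization, background correction, filter, probe summary and variance estimate, used slide or replicate number as a block, took slide 1 alone, left out each array, used the deposited table, or grouped arrays as filed.

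Members and lists were chosen with earlier results of these data known. Named are all members, each listed gene that passed where 5 or fewer of its list did in that direction (otherwise the 2 of smallest p), genes whose role stands beside a member, and the gene nearest each member. Krt33b, Cd68 and Cd3e were chosen after their values were seen. Replicate numbers were not treated as pairs, since same-numbered arrays deviated with correlations of -0.0872, 0.0676 and 0.0854 across genes.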

Additional observations from a re-analysis of the deposited data

How the results depend on the processing

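The median difference of the 10 desmosomal genes was positive under every alternative run except the grouping as filed, at 0.40 to 0.68 with each array left out. Grouped as filed, the median was -0.58, 2 genes were higher and 4 lower, and the differences were 0.04 (Dsg1a), -0.98 (Dsg1b), 1.20 (Dsg2), -1.30 (Dsg3), 5.56 (Dsg4), -1.24 (Dsc1), -1.05 (Dsc2), -0.27 (Dsc3), -0.88 (Pkp1) and -0.28 (Dsp), with list medians of -0.06 for other desmosome genes, 0.10 for the adherens junction and 0.29 for transcription factors. Over all genes, 2331 were higher and 1866 lower. With slide as a block 541 were higher and 518 lower (desmosomal genes 1 and 0), within slide 1, where 1 imiquimod array met 3 vehicle arrays, 7 and 1 (desmosomal 0 and 0), and with the replicate number as a block 1168 and 1046 (desmosomal 2 and 2). The lone array in the slide fits is assumed to vary like the others. With each array left out, 944 to 2515 were higher and 745 to 2215 lower, and 1 to 4 desmosomal genes were higher and 0 to 2 lower. Without imiquimod array 1, 2 or 3 or vehicle array 1, 944 to 1032 were higher and 745 to 854 lower, and without vehicle array 2 or 3, 2460 and 2515 were higher and 2215 and 1972 lower. The replicate block lost Dsg3 (adjusted p = 0.0934) and Pkp1 (adjusted p = 0.0579). Of the genes that fell, 1 passed with normexp background correction and 1 with the filter on all 6 arrays, which leaves Dsg4 untested. Testing every probe, dim ones too, lost Dsg3 (1.30, adjusted p = 0.0635). Dsg1a, at -0.04, differed by 0.16 with slide as a block and within slide 1, by 0.05 without imiquimod array 3 and by 0.07 without vehicle array 3 (-0.14 to 0.07 with each array left out). The median of other desmosome genes was -0.06 with quantile normalization and in the value table, -0.04 without imiquimod array 2 and -0.06 without vehicle array 1 (-0.06 to 0.14 with each left out). That of adherens junction genes was 0.03 with slide as a block and within slide 1 and 0.09 without vehicle array 2 (-0.23 to 0.09). The cause of these changes was not tested. The deposited values kept 6 of 6 calls with the same sign. The signal over background limits Dsg4, whose imiquimod values lie in the background. Added after seeing the data were the Dsg1b probe without a Dsg1c accession, which kept the call, the other Dsg3 probe, which lost it, the ratio of that probe to Dsg2, and the Dsg4 bound with each vehicle array left out. Limma's p-values here are Benjamini-Hochberg adjusted.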
